A study of Mus musculus with 2 samples.

Results

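A set of 9 genes that drive or restrain KPC pancreatic cancer was followed cell type by cell type. The genes were chosen by name, with earlier results of these data known, and all 9 were found among the 32285 genes counted. They comprised the p53 gene Trp53 and its targets Cdkn1a, Mdm2 and Ccng1, the neighboring cell cycle inhibitors Cdkn2a and Cdkn2b, the signal transducer Smad4, and the oncogene Myc with its noncoding neighbor Pvt1.

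KPC cells come from a mouse pancreatic tumor that carries a Cre-driven mutant p53 allele. The p53 protein is a transcription factor that turns on arrest genes such as Cdkn1a and also its own inhibitor Mdm2, and mutant p53 binds these targets poorly. The Cdkn2a locus makes one protein that blocks the cyclin D kinases and another, read from an alternative starting exon, that blocks Mdm2. Cdkn2a, p53 and SMAD4 are the tumor suppressors most often lost in pancreatic ductal cancer, and MYC is a common driver of growth.

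Cells were counted from 2 orthotopic mouse tumors, 1 grown from KPC-shV cells (the vector control) and 1 from KPC-shZEB1 cells (a stable hairpin line against Zeb1). The study's results text, but not the sample labels, states that the mice received gemcitabine. Both lines were selected after lentiviral transduction and were grown in the pancreas of immunocompetent mice, and all cells of the dissociated tumor, host cells included, were loaded for 3′ single-cell RNA sequencing. The library labelled KPC-shV kept 11398 cells and the KPC-shZEB1-labelled library kept 12104, with 36 cell barcodes occurring in both. With 1 library per group there was no test: mouse, tumor, dissociation, library and group cannot be told apart, and every interval below covers counting error only. Levels are CPM, the UMIs (counted molecules) of a gene relative to all UMIs of the cells summed, in the usual scaling of that unit, with exact Poisson 95% intervals.

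The knockdown target did not follow its label. Zeb1 stood at 167 CPM in tumor-like cells of the KPC-shV-labelled library and at 189 CPM in those of the KPC-shZEB1-labelled library, a ratio of 1.13 (95% interval 1.09–1.17). It was also higher in the latter within Epcam-high and Epcam-low tumor cells, by 1.22-fold and 1.23-fold. In Ralyl-positive and few-UMI cells, on fewer counts, the ratios were 0.895 (0.709–1.15) and 1.31 (0.868–2.00). Host cells held Zeb1 too, and T and NK-like cells had 1272 and 1434 CPM. The ratio was 1.48 in granulocyte-like and 1.52 in monocyte-macrophage-like cells, but 0.995 in B-like and 0.9995 in endothelial-like cells. Host RNA among the counts of tumor-like cells was not subtracted from these Zeb1 values, so a higher level made by the tumor cells themselves was not shown. A 3′ count does not measure protein, and no direction given here between the libraries can be read as an effect of less Zeb1.

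Tumor-like cells numbered 1484 in the KPC-shV-labelled library and 1426 in the KPC-shZEB1-labelled library (13.0% and 11.8% of the cells), with median depths of 23791 and 23812.5 UMIs per cell. They formed 4 clusters that were made without the 9 genes and the pathway genes listed further on. Epcam-high cells made up 50.8% and 52.2% of them. Epcam-low cells, marked by Prg4 and Grem1, made up 28.2% and 10.2%, and Ralyl-positive cells 0.606% and 15.9%, so 9 against 227 cells. The remaining 20.4% and 21.6% had few UMIs, with medians of 2127 and 2250 per cell. Epcam-low and Ralyl-positive cells rested on 3 and 6 detected epithelial markers, none of them among their 10 leading genes, and their Epcam levels (19.8 to 37.6 CPM) were at the level of host cells (22.0 to 47.4 CPM). Their naming as tumor cells is therefore uncertain, and each value over all tumor-like cells mixes these subpopulations in different proportions.

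Start-site sequences are shown for the genes whose patterns the results turn on. They come from RefSeq windows on GRCm38.p6, which exist here for 6 of the 9 genes. All windows of 250 bases before a start were searched on both strands for the GC box (GGGCGG), the MYC E-box (CACGTG), the TATA box (TATAAA) and the p53 consensus, a pair of half-sites without spacer and with at most 1 mismatch in 20 bases. Of 32851 windows of that length in the mouse table, 32.7% held a GC box, 6.02% an E-box, 12.4% a TATA box and 0.0761% a p53 consensus. Among the windows of these genes none held 2 kinds of motif. The neighbors Cdkn2a and Cdkn2b are shown first because both were high in tumor-like cells. Below are the last 120 bases before the outer and the inner Cdkn2a start and before the Cdkn2b start, all on the minus strand (chr4:89294620-89294739, chr4:89282193-89282312 and chr4:89311033-89311152), with GC boxes in capitals.
Cdkn2a, outer start: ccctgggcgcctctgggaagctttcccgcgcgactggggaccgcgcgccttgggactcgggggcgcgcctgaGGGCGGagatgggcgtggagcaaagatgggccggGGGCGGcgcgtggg
Cdkn2a, inner start: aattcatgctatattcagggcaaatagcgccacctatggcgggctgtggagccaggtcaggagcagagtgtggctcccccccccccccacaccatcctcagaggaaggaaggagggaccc
Cdkn2b: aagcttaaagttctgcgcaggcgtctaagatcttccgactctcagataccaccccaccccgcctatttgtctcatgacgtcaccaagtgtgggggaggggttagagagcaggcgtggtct
The outer start held 2 GC boxes, 14 and 48 bases before the start, and the other stretches held none. A 3′ count cannot say which of the Cdkn2a starts was in use.

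The p53 consensus was found before Cdkn1a and Ccng1, and these are shown because the 2 genes had different host patterns. It was found before none of the other 4 genes with a window, and before 1 of 19 further p53 target genes with a window (Rps27l). The stretches of 60 bases carry the site in capitals, at chr17:29090908-29090967 on the plus strand and chr11:40755442-40755501 on the minus strand. The site lay 51 bases before the outer Cdkn1a start and 195 bases before that of Ccng1.
Cdkn1a: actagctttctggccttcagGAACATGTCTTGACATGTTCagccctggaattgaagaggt
Ccng1: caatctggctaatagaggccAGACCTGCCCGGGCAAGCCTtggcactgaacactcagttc
The window of the inner Cdkn1a start held no p53 consensus and 2 GC boxes. A match describes these letters, not binding.

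Cdkn2a (4:89274471-89294653, minus strand; all coordinates are GRCm38) had, of the 9 genes, the largest gap between tumor-like cells and the nearest host class. Its level in tumor-like cells was 276 CPM in the KPC-shV-labelled library and 396 CPM in that labelled KPC-shZEB1. In 7 host classes, namely fibroblast-like, endothelial-like, granulocyte-like, monocyte-macrophage-like, dendritic-like, T and NK-like and B-like cells, it was 12.9 to 30.6 CPM. The tumor level was 9.03 to 26.5 times that of any host class of the same library. Between 3.77% and 11.1% of the tumor level was counted in host cells. The epithelial genes Krt8, Krt18, Krt19 and Epcam, which these classes should lack, were counted there at 5.72% to 18.8% of their tumor level. Cdkn2a lay at or under the highest of these epithelial genes in 6 of 7 host classes of the KPC-shV-labelled library and in 7 of 7 of the other. The exception was the fibroblast-like class, at 9.78% (8.68–10.98) against 9.13%. In no host class did the Cdkn2a interval lie above the highest of the epithelial genes. The counts therefore do not tell Cdkn2a made by host cells from background, and its source there was not tested.

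**Figure D1:**
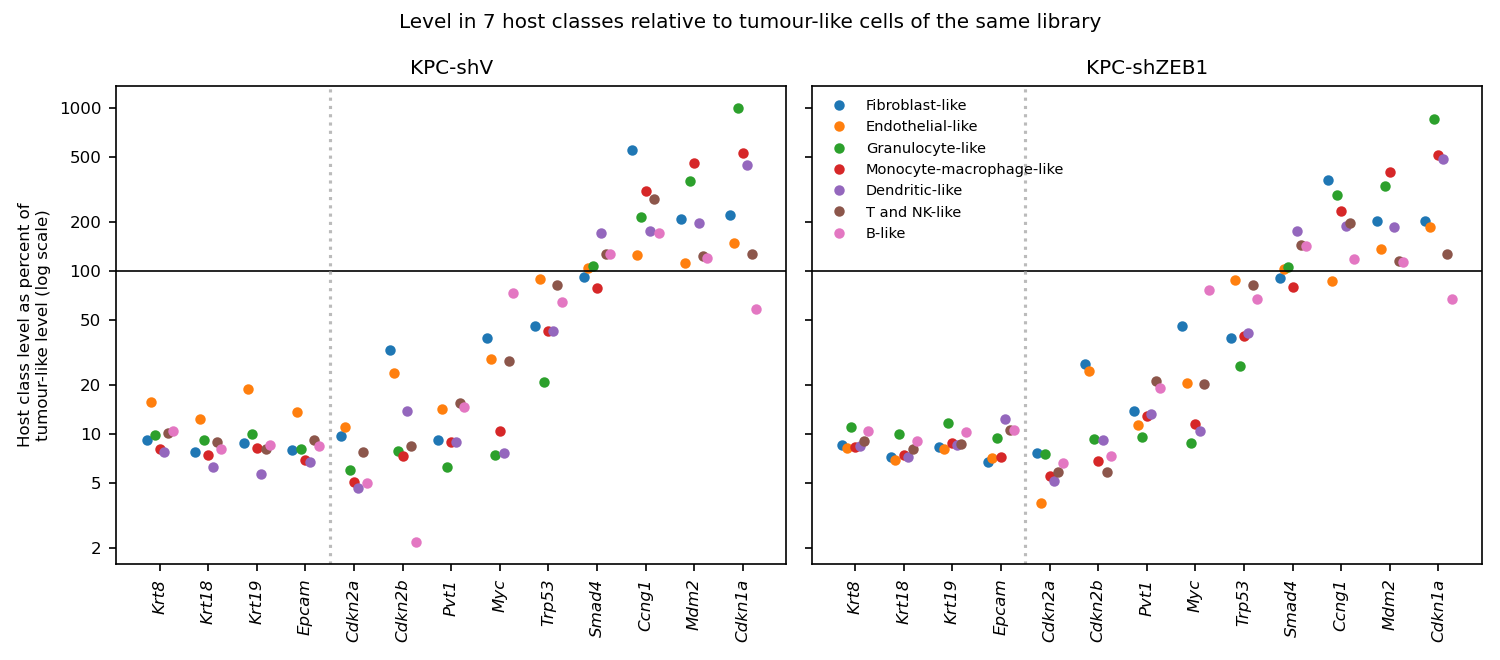
Level of 4 epithelial genes (left of the dotted line) and of the 9 genes in 7 host classes, as percent of the level in tumor-like cells of the same library (log scale, 1 point per class, left and right panels for the libraries). Cdkn2a points lie with the epithelial genes, at 3.77% to 11.1%, while Ccng1, Mdm2 and Cdkn1a points lie mostly above the line at 100%.

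Among tumor-like cells the Cdkn2a level differed in steps whose intervals did not overlap. In the KPC-shZEB1-labelled library it was 312 CPM (304–320) in Epcam-high, 444 (425–465) in Epcam-low and 614 (596–633) in Ralyl-positive cells. Epcam-low over Epcam-high was 1.35 (1.29–1.40) in the KPC-shV-labelled library and 1.42 (1.35–1.499) in the other, and Ralyl-positive over Epcam-high was 1.97 (1.90–2.05). The per-cell medians followed the same order, at 262, 415 and 573 CPM. The 9 Ralyl-positive cells of the KPC-shV-labelled library gave 297 CPM (238–367) on 87 UMIs, an interval that overlapped both the Epcam-high (245 CPM, 238–251) and the Epcam-low cells (329 CPM, 319–339) of that library.

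Between the libraries, Cdkn2a was higher in the one labelled KPC-shZEB1 in every tumor subpopulation. The ratio was 1.43 (1.39–1.47) over all tumor-like cells, 1.27 (1.23–1.32) in Epcam-high and 1.35 (1.28–1.43) in Epcam-low cells. Leaving out the Ralyl-positive cells lowered the ratio over tumor-like cells to 1.22 (1.18–1.25). At equal depth, with every cell thinned to 1000 UMIs, 21.0% and 29.7% of tumor-like cells had a Cdkn2a UMI, against 1.499% and 2.65% of granulocyte-like cells. Unthinned, these shares were 79.1% and 84.1%, against 5.21% and 8.51%.

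Cdkn2b, which encodes another inhibitor of the cyclin D kinases and lies 11646 bases from Cdkn2a (4:89306299-89311039), was also highest in tumor-like cells but was lower in the KPC-shZEB1-labelled library. It was 79.4 CPM in tumor-like cells of the KPC-shV-labelled library and 70.3 CPM in the other, a ratio of 0.885 (0.838–0.935). In Epcam-high cells the values were 87.6 and 71.5 CPM (ratio 0.816, 0.762–0.874), and in Epcam-low cells 68.2 and 63.8 CPM (0.935, 0.814–1.07). Its subpopulations were not ordered as those of Cdkn2a were. Epcam-low over Epcam-high was 0.779 (0.717–0.846) in the KPC-shV-labelled library and 0.893 (0.783–1.01) in the other. Ralyl-positive cells had 77.6 CPM (71.3–84.3), overlapping the Epcam-high interval of 67.9 to 75.2.

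Among host classes, fibroblast-like and endothelial-like cells had the most Cdkn2b. Their levels were 26.0 and 18.8 CPM in the KPC-shV-labelled library and 18.8 and 17.1 CPM in the other. Relative to tumor-like cells these were 32.7% and 26.7% for the fibroblast-like and 23.7% and 24.3% for the endothelial-like class, where no epithelial gene exceeded 9.13% and 8.599%, and 18.8% and 8.17%, in the same order. The fibroblast-like intervals lay above the epithelial genes in both libraries, but the endothelial-like interval of the KPC-shV-labelled library (17.7–31.1) included the level of Krt19. The dendritic-like interval lay above them in the KPC-shV-labelled library alone (13.9%, 8.87–20.7, against at most 7.71%). In the other library the 2 dendritic-like clusters differed, at 3.37 and 19.6 CPM. The higher value, in 102 cells led by Ccr7, was near that of the fibroblast-like class. Summed as whole classes, the other 5 host classes had 1.72 to 11.02 CPM.

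Mtap, the nearest other gene on that side of chromosome 4 and one often lost together with CDKN2A in human cancer, was also counted in tumor-like cells, at 98.9 and 116 CPM against 8.27 to 31.9 CPM in host classes. Transcripts of all 3 genes of this interval were therefore counted in the tumor-like cells of both libraries.

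Trp53 (11:69580359-69591873) was broadly expressed and close to equal in the libraries. Tumor-like cells had 118.6 CPM in the KPC-shV-labelled library and 119.96 CPM in the other, a ratio of 1.01 (0.968–1.06). The 7 host classes ran from 24.6 CPM in granulocyte-like to 106 CPM in endothelial-like cells, and the endothelial-like interval overlapped those of Epcam-high and Epcam-low cells in both libraries. In the KPC-shZEB1-labelled library Ralyl-positive cells had the highest level, 142 CPM (133–151), which was 1.24 times (1.15–1.33) that of Epcam-high cells. The counts do not separate mutant from normal transcripts.

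Cdkn1a, the p53-induced cyclin kinase inhibitor (17:29090976-29100727), was mainly a gene of host cells in these tumors. Granulocyte-like cells had 1217 and 1214 CPM, monocyte-macrophage-like cells 645 and 728 CPM and dendritic-like cells 544 and 694 CPM, each pair given as the KPC-shV-labelled library and then the one labelled KPC-shZEB1. Tumor-like cells had 122 and 142 CPM, so the granulocyte-like level was 999% and 853% of theirs. Only B-like cells, at 70.7 and 95.6 CPM, were under the tumor-like level in both libraries.

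Granulocyte-like cells, rich in Cdkn1a, also left RNA among the counts of tumor-like cells. From 5 granulocyte genes, 14.1% and 17.8% of the UMIs of tumor-like cells were estimated to be background RNA. Subtracting it left 49.3 and 53.7 CPM of Cdkn1a and lowered the ratio between libraries from 1.17 (1.12–1.22) to 1.09. The subpopulations did not share that direction. After subtraction Epcam-high cells had 65.0 and 62.6 CPM and Epcam-low cells 22.7 and 10.4 CPM. Ralyl-positive cells had 79.3 CPM, on 9 cells, and 51.7 CPM. Only few-UMI cells were higher in the KPC-shZEB1-labelled library, at 38.2 and 69.7 CPM. The share of background RNA was itself higher in the KPC-shZEB1-labelled library.

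Epcam-low cells had the least Cdkn1a of the tumor-like cells, 90.8 against 138.7 CPM in Epcam-high cells of the KPC-shV-labelled library and 93.1 against 151 CPM in the other. The ratios were 0.655 (0.611–0.702) and 0.617 (0.556–0.684). After subtraction Epcam-low cells kept 22.7 and 10.4 CPM, and the ratios became 0.350 and 0.165. Ralyl-positive cells, at 141 CPM, overlapped Epcam-high cells.

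**Figure D2:**
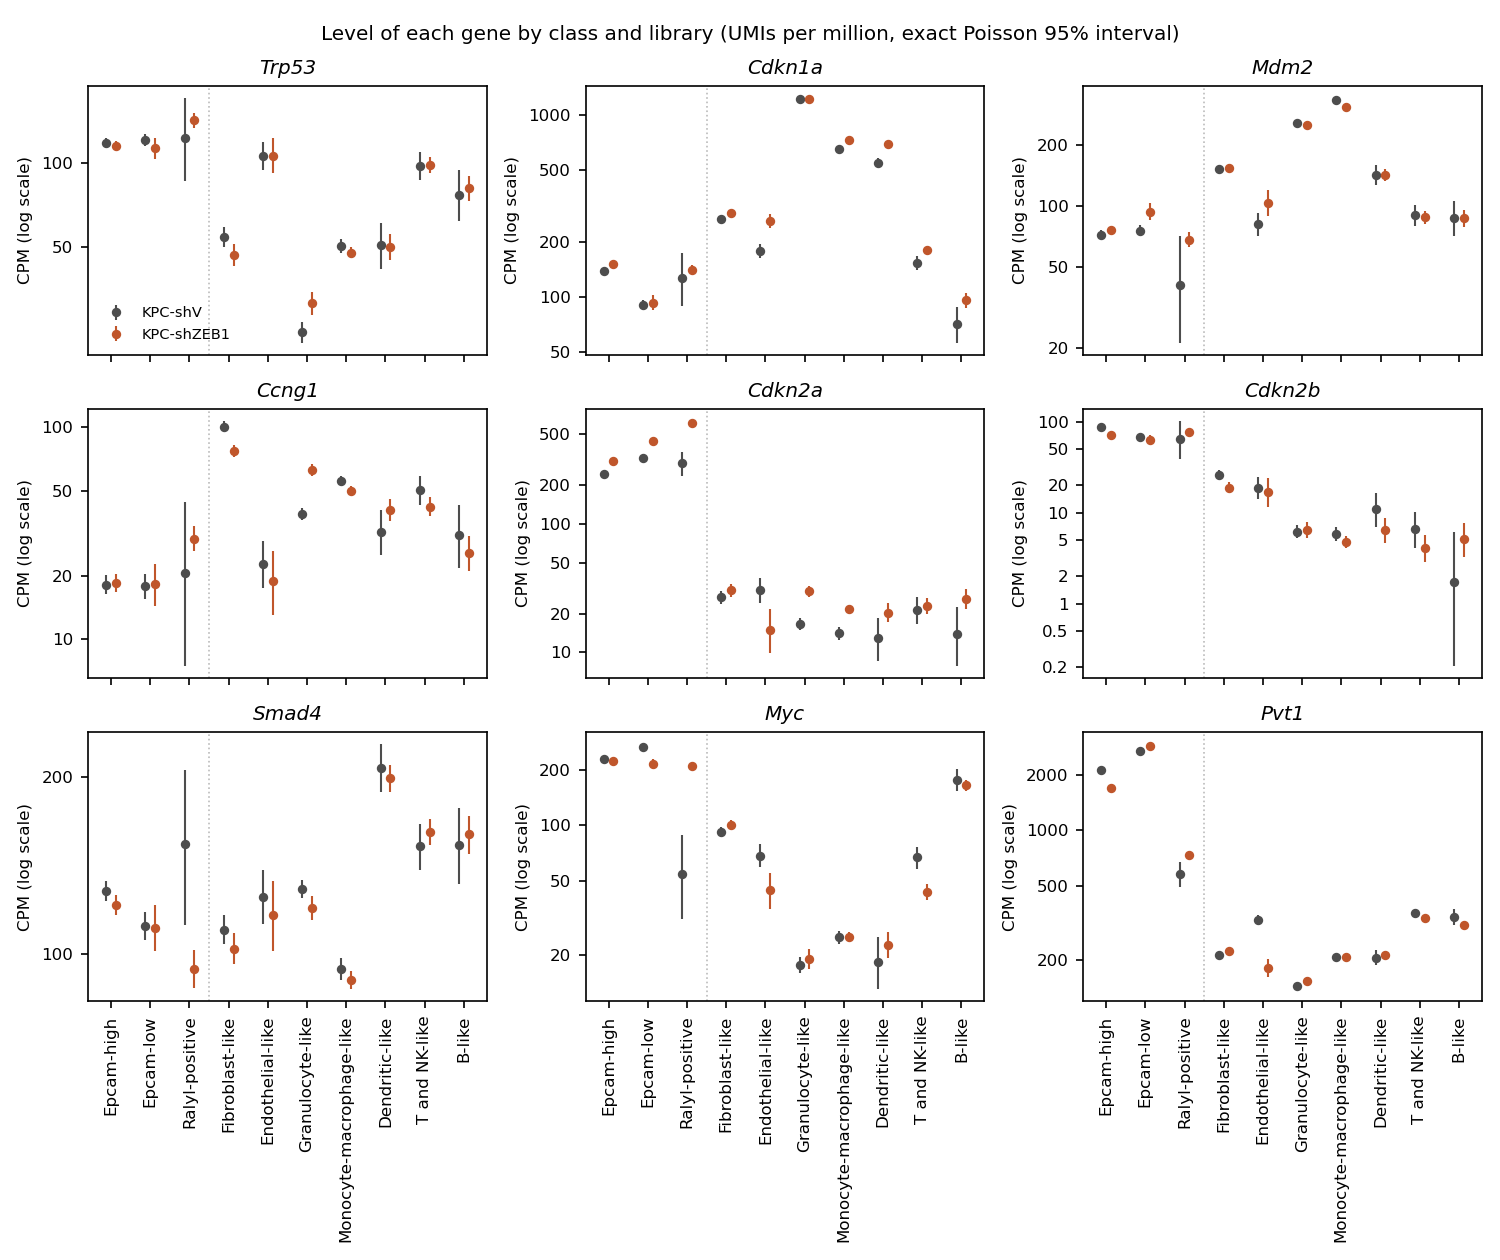
Level in CPM (log scale, exact Poisson 95% intervals) of each gene in 3 tumor-like subpopulations (left of the dotted line) and 7 host classes, gray for the KPC-shV-labelled library and orange for that labelled KPC-shZEB1. Cdkn2a, Cdkn2b and Pvt1 are highest left of the line and Cdkn1a and Mdm2 right of it, and the 9 Ralyl-positive cells of the KPC-shV-labelled library give wide intervals.

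Mdm2, the ubiquitin ligase that degrades p53 (10:117688875-117710758), was like Cdkn1a highest in myeloid classes. Monocyte-macrophage-like cells had 335 and 310 CPM and granulocyte-like cells 260 and 253 CPM, against 73.0 and 76.6 CPM in tumor-like cells. The value of every host class was above that of tumor-like cells in the same library. Within granulocyte-like cells the clusters differed more than the libraries did, from 127 to 482 CPM over 6 clusters in the KPC-shV-labelled library and from 137 to 550 CPM in the other. Between libraries the tumor-like ratio was 1.05 (0.993–1.11) and 0.942 after subtraction of background RNA. It was 1.24 (1.10–1.39) in Epcam-low cells.

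Ccng1, a p53 target whose product recruits a phosphatase to MDM2 (11:40748552-40755311), was highest in fibroblast-like cells when summed by class. Fibroblast-like cells had 101 and 77.5 CPM, whereas tumor-like cells had 18.2 and 21.5 CPM. Granulocyte-like cells had 38.9 and 63.2 CPM, a ratio of 1.62 (1.48–1.78), but their clusters spanned 15.2 to 111 CPM and 24.7 to 113 CPM. The granulocyte-like cluster with the most Ccng1 (111 and 113 CPM) was above the fibroblast-like class in each library. It held 861 cells of the KPC-shV-labelled library and 1540 of the other, and within it the libraries did not differ beyond counting error.

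In tumor-like cells, the Ccng1 ratio of 1.18 (1.06–1.32) came to 1.06 (0.9404–1.19) without the Ralyl-positive cells. These had 29.9 CPM (26.0–34.1), 1.62 times (1.37–1.92) the 18.4 CPM of Epcam-high cells. Epcam-low cells, at 17.8 and 18.2 CPM, overlapped Epcam-high cells in both libraries.

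Smad4, the common partner of the receptor-activated SMADs in TGF-β signaling, on chromosome 18, was expressed at similar levels nearly everywhere. Tumor-like cells had 121 and 113 CPM, a ratio of 0.934 (0.894–0.976), and host classes spanned 90.4 to 208 CPM. Dendritic-like cells were highest in both libraries, at 208 and 199 CPM, and monocyte-macrophage-like cells lowest, at 94.5 and 90.4 CPM. Ralyl-positive cells had 94.5 CPM (87.6–101.9), 0.779 times (0.715–0.848) the Epcam-high level, and without them the ratio between libraries was 0.978 (0.933–1.02).

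Myc, a transcription factor of growth genes (15:61985391-61990374), was highest in tumor-like cells and next in B-like cells. The tumor-like level was 239 CPM in the KPC-shV-labelled library and 217 CPM in the other, and the B-like level 176 and 164 CPM. Myeloid classes were lowest, at 17.7 to 25.03 CPM, and relative to tumor-like cells the granulocyte-like values were under all 4 epithelial genes and the dendritic-like values under the highest of them. The ratio between libraries was 0.907 (0.879–0.936) over tumor-like cells and 0.967 (0.928–1.01) in Epcam-high cells. In Epcam-low cells it was 0.810 (0.753–0.871), from 264 to 214 CPM.

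Pvt1, a long noncoding RNA gene that starts 47612 bases after Myc (15:62037986-62378096) and is often amplified with it, differed among tumor-like subpopulations by more than any other member before background subtraction. Its level was 2303 CPM in the KPC-shV-labelled library and 1599 CPM in the other, against 144 to 356 CPM in host classes. The tumor-like level was 4.73 to 16.0 times that of any host class of its library. T and NK-like cells had 15.4% and 21.1% of the tumor-like level, the most of the host classes and above the epithelial genes in that class. The Pvt1 interval lay above the highest epithelial gene in 4 of 7 host classes of the KPC-shV-labelled library and in 6 of 7 of the other.

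The subpopulations ordered Pvt1 differently from Cdkn2a. Epcam-low cells had the most, 2691 and 2866 CPM, followed by Epcam-high cells at 2127 and 1690 CPM. Ralyl-positive cells of the KPC-shZEB1-labelled library had 739 CPM (719–759), or 0.437 (0.425–0.450) of Epcam-high, while their Myc level of 210 CPM was 0.947 (0.894–1.00) of Epcam-high. These are summed levels, and the medians of single cells given below differ in direction for Pvt1.

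Where the border between Epcam-high and Epcam-low cells was drawn changed the size of the Pvt1 difference. Epcam-low over Epcam-high was 1.27 (1.25–1.28) in the KPC-shV-labelled library and 1.696 (1.66–1.73) in the other. With finer clusters it was 2.20 and 2.30, and without doublet removal 2.15 and 2.14. The direction was the same under each.

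**Figure D3:**
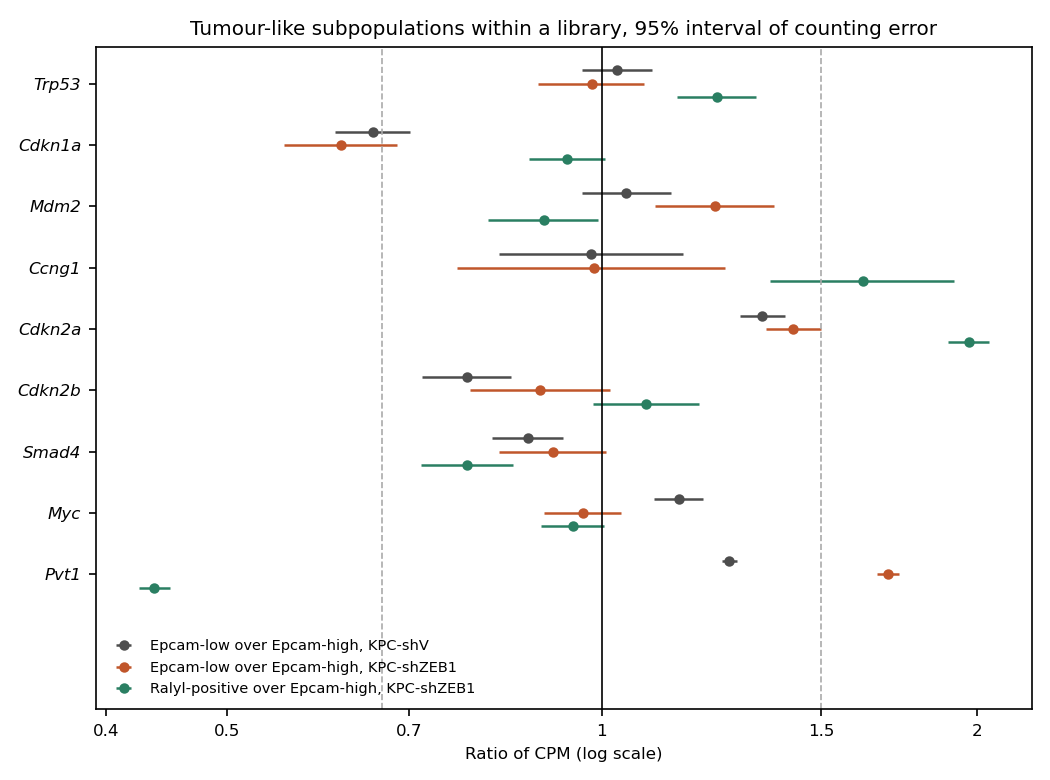
Ratio of CPM on a log scale between tumor-like subpopulations of 1 library, with 95% intervals of counting error and dashed lines at 1.5-fold. Ralyl-positive cells (green) lie at 1.97 for Cdkn2a and 0.437 for Pvt1, and Epcam-low cells of both libraries lie left of 1 for Cdkn1a and right of 1 for Cdkn2a and Pvt1.

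Single cells showed the spread behind these sums. In Epcam-high cells of the KPC-shV-labelled library the per-cell Pvt1 level had a median of 587 CPM, with a 10th percentile of 107 and a 90th percentile of 4461 CPM. In the KPC-shZEB1-labelled library the same values were 512, 109 and 3315 CPM. Ralyl-positive cells were narrower, with a median of 640 CPM between 227 and 1375 CPM. The median Ralyl-positive cell therefore had more Pvt1 than the median Epcam-high cell of that library, although the summed level was lower.

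For Epcam-low cells the per-cell median and the sum pointed the same way, with Pvt1 medians of 1315 and 1438 CPM. Myc medians lay between 115 and 156 CPM in all 5 sets of cells shown, and Cdkn1a medians between 66.9 and 122 CPM.

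**Figure D4:**
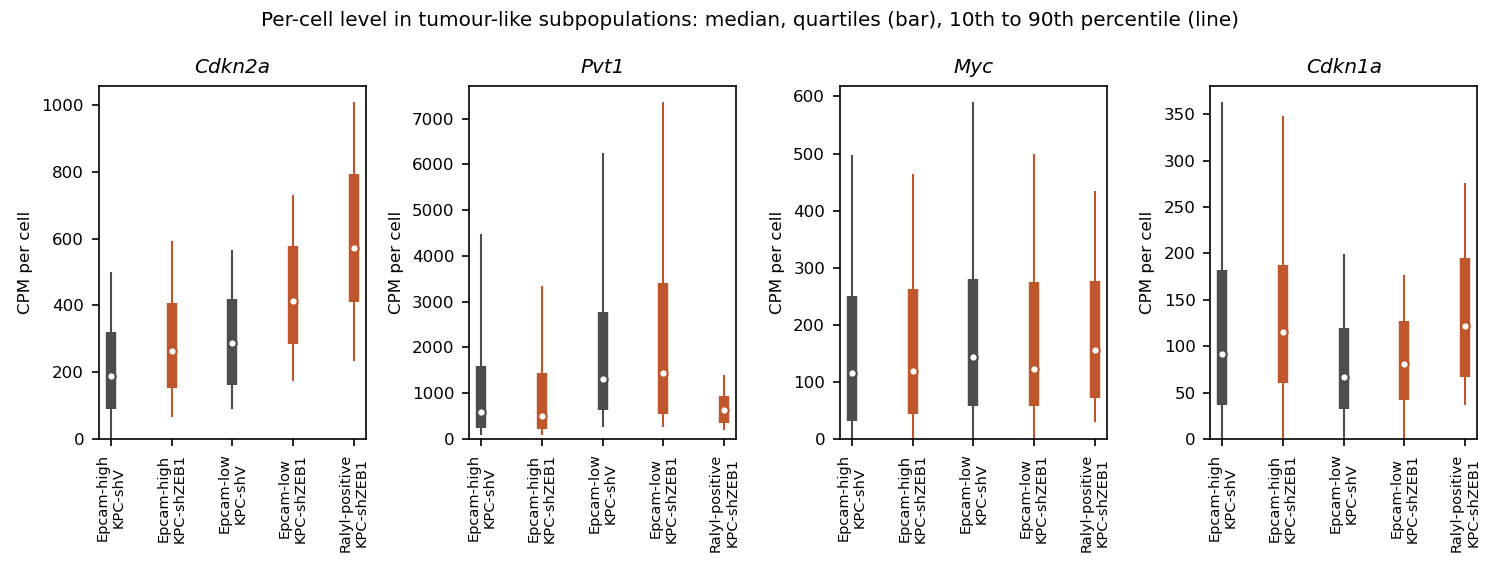
Per-cell CPM of 4 genes in tumor-like subpopulations: median (white point), quartiles (thick bar) and 10th to 90th percentile (thin line), gray for the KPC-shV-labelled library and orange for that labelled KPC-shZEB1. Cdkn2a medians go from 190 to 573 CPM from left to right, and the upper Pvt1 percentiles reach 7350 CPM in Epcam-low cells but 1375 CPM in Ralyl-positive cells.

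Summed over all tumor-like cells, none of the 9 was at least 1.5-fold higher or lower in tumor-like cells of the KPC-shZEB1-labelled library, while 12.4% of 16334 genes with at least 30 UMIs were higher and 4.53% were lower by that fold. The median log2 ratio of the members was 0.02 against 0.04 for all genes. The outermost were Cdkn2a at 0.52 and Pvt1 at -0.53. Subpopulations with fewer counts differed more. In few-UMI cells Pvt1 was at 1668 and 514 CPM (0.308, 0.280–0.339) and Cdkn2b at 50.4 and 27.9 CPM (0.555, 0.343–0.886). Ralyl-positive cells, only 9 of them in the KPC-shV-labelled library, had ratios of 3.84 (2.36–6.74) for Myc on 16 and 1527 UMIs and 0.615 (0.454–0.851) for Smad4 on 45 and 687 UMIs.

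**Figure D5:**
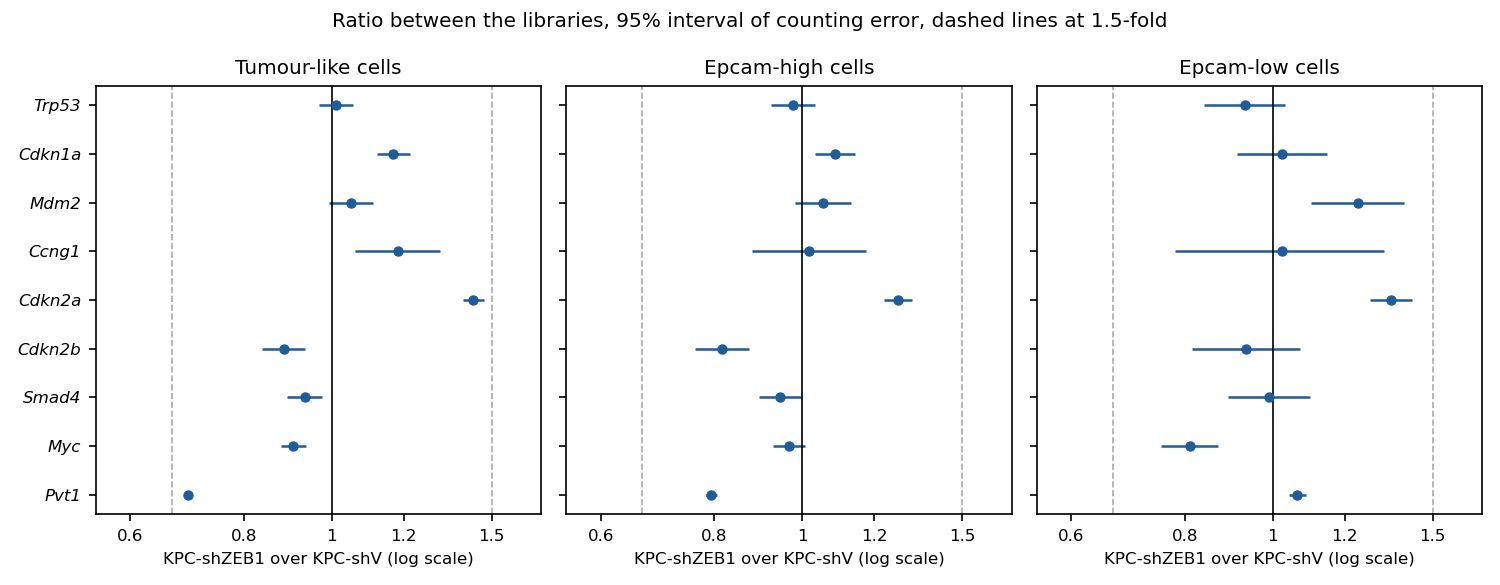
Ratio of the KPC-shZEB1-labelled library over that labelled KPC-shV for each gene (log scale, 95% interval of counting error, dashed lines at 1.5-fold) in all tumor-like, Epcam-high and Epcam-low cells. All points lie between the dashed lines, and Cdkn2a lies right of 1 in each panel.

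Within a library, 1 to 3 of the 9 members were past 1.5-fold against Epcam-high cells. In Epcam-low cells 0 of 9 were higher and 1 (Cdkn1a) lower by 1.5-fold in the KPC-shV-labelled library, where 14.5% of genes were higher and 14.7% lower. In the KPC-shZEB1-labelled library, 1 (Pvt1) was higher and 1 (Cdkn1a) lower, against 14% and 19.8% of genes. Ralyl-positive cells had 2 higher (Cdkn2a and Ccng1) and 1 lower (Pvt1), against 14.6% and 19.7%. Tumor-like cells against host differed more: 3 of 9 (Cdkn2a, Cdkn2b and Pvt1) were at least 1.5-fold above each of the 7 host classes in both libraries, against 7.81% of 16570 genes, and 0 were below all of them, against 0.441%.

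The wider pathways were counted over 8 lists of 123 genes. Of 28 p53 targets, 1 was at least 1.5-fold higher in tumor-like cells of the KPC-shZEB1-labelled library and 1 lower, with a median log2 ratio of 0.02. The lower was the antiproliferative gene Btg2, at 941 and 547 CPM (ratio 0.582, 0.571–0.592). Within Epcam-high and Epcam-low cells the Btg2 ratio was 0.668 (0.653–0.684) and 0.824 (0.796–0.853), so it passed 1.5-fold in neither. The higher was the death receptor gene Eda2r, but on 13 and 25 UMIs (1.96, 0.964–4.16). Next to these came Gdf15, a stress-induced TGF-β family cytokine, at 47.7 and 63.9 CPM (1.34, 1.26–1.43), and the kinase gene Plk3 at 77.1 and 58.1 CPM (0.753, 0.710–0.799).

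The Gdf15 difference was carried by Ralyl-positive cells, with 141 CPM against 47.4 CPM in Epcam-high cells of that library (2.97, 2.72–3.25). Without them the ratio between libraries was 0.895 (0.829–0.965). In Ralyl-positive cells 2 of 27 measured p53 targets (Gdf15 and Sesn1) were 1.5-fold above Epcam-high and 8 below, where 14.6% of all genes were above and 19.7% below. In Epcam-low cells 2 were above and 6 below in the KPC-shV-labelled library (all genes 14.5% and 14.7%), and 4 and 7 in the other (14% and 19.8%). The low ones included Perp and Pmaip1, picked after values were seen, while the higher ones in Epcam-low cells are not named here. Over all tumor-like cells Perp was 1.5-fold above every host class in both libraries. Perp was at 2.11 against 45.7 CPM and Pmaip1 at 17.0 against 75.1 CPM in the KPC-shV-labelled library.

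Among 14 regulators of p53, 0 of 13 measured were 1.5-fold higher between the libraries and 1 lower, the p53 family gene Trp63 on 118 and 46 UMIs (0.397, 0.276–0.562). Within Epcam-high and Epcam-low cells its ratio was 0.631 (0.347–1.12) and 0.717 (0.422–1.17), so neither was beyond counting error. The checkpoint kinase genes Chek1 (1.41, 1.21–1.64; 1.14 without Ralyl-positive cells) and Chek2 (1.31, 1.14–1.52) had the highest ratios and the ubiquitin ligase gene Rchy1 (0.795, 0.739–0.854) the second lowest. The list median was -0.10.

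Of 17 further genes of the CDK inhibitors and the RB pathway, 1 was higher and 1 lower, with a median of 0.01. The higher was Cdk6, a kinase that the Cdkn2a and Cdkn2b products inhibit, at 459 and 1108 CPM (2.41, 2.37–2.46). Ralyl-positive cells had 2960 CPM of it against 680 CPM in Epcam-high cells, and without them the ratio was 1.34 (1.31–1.37). Cdkn2c, an inhibitor of the same kinases, had 57.7 CPM in Ralyl-positive against 9.22 CPM in Epcam-high cells (6.25, 5.26–7.45). Over tumor-like cells its ratio between libraries was 1.42 (1.27–1.59), or 0.8004 (0.696–0.919) without Ralyl-positive cells. Within Epcam-high and Epcam-low cells the Cdkn2c ratio was 1.02 (0.833–1.26) and 1.00 (0.807–1.24), so neither was beyond counting error. The lower gene was the CDK inhibitor Cdkn1c, at 23.3 and 12.6 CPM (0.540, 0.479–0.608), which Epcam-low cells held at 46.2 and 50.6 CPM against 10.9 and 6.81 CPM in Epcam-high cells. Cyclin E1, Ccne1, was at 15.9 and 11.5 CPM (0.720, 0.631–0.821).

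Of 8 cycling genes, 3 were 1.5-fold higher in tumor-like cells of the KPC-shZEB1-labelled library and 0 lower, against 12.4% and 4.53% of all genes. Mki67 and Top2a had ratios of 1.72 (1.63–1.81) and 1.75 (1.67–1.83). In Epcam-high cells the Mki67 level was 65.8 and 117 CPM and in Epcam-low cells 64.0 and 68.6 CPM. Between the libraries 0 of 8 were higher and 2 lower in Epcam-low cells, where 1140 of 12966 genes were higher and 834 lower. In the KPC-shZEB1-labelled library 0 were higher and 4 lower in Epcam-low than in Epcam-high cells, against 14% and 19.8% of genes. Cdkn2a was higher in both comparisons, but also in 2 where cycling genes were not lower. In Ralyl-positive over Epcam-high cells 3 of 8 cycling genes were higher and 0 lower, against 14.6% and 19.7% of genes. Between the libraries in Epcam-high cells 3 were higher and 0 lower, where 1634 of 15142 genes were higher and 555 lower. Over tumor-like cells the replication genes Mcm6 (0.892, 0.840–0.947) and Pcna (0.975, 0.931–1.02) did not share the direction of Mki67 and Top2a. Whether cycling bears on the Cdkn2a or Cdk6 values was not tested.

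The SMAD list had 0 of 12 genes past 1.5-fold in either direction and a median of -0.06. Its ends were Smad5 (0.794, 0.736–0.856) and Smad1 (0.815, 0.780–0.851) on the low side, both carriers of BMP signals, and the TGF-β receptor gene Tgfbr2 (1.11, 1.06–1.17) and the inhibitory Smad6 (1.15, 1.03–1.28) on the high side. Between subpopulations Smad3 differed more than Smad4 did: in the KPC-shV-labelled library it was 287 CPM in Epcam-high and 125 CPM in Epcam-low cells (0.437, 0.413–0.462). In the other it was 264, 114 and 122 CPM in Epcam-high, Epcam-low and Ralyl-positive cells.

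Of the MYC partners 0 of 10 measured genes passed 1.5-fold between the libraries, with a median of -0.17. The ends were Zbtb17 (0.843, 0.735–0.967) and Mycl (0.845, 0.566–1.26, on 59 and 49 UMIs), and Mxd3 (1.15, 0.888–1.497) and Mlx (1.17, 1.04–1.31). Of 17 MYC targets 0 passed, with a median of 0.05. The nucleolar genes Npm1 (1.19, 1.17–1.204) and Fbl (1.196, 1.15–1.25) had the highest ratios. Npm1 was 1.03 without Ralyl-positive cells, 1.01 in Epcam-high and 0.881 (0.851–0.912) in Epcam-low cells. The lactate dehydrogenase gene Ldha (0.856, 0.838–0.875) and the ribosome biogenesis gene Ppan (0.872, 0.796–0.955) had the lowest. Against host cells, 4 of these 17 (Ncl, Nop58, Hspd1 and Mrto4) were 1.5-fold above every class in both libraries. The RAS list had 0 of 16 genes past the fold and a median of -0.09. The ETS factor Etv5 (0.727, 0.668–0.791) and the ERK phosphatase Dusp5 (0.819, 0.792–0.848) were lowest, and Hras (1.16, 1.10–1.23) had the highest ratio.

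Neighboring genes on the chromosome did not all share a member's pattern. Fam84b, which lies 1131613 bases before Myc, was also highest in tumor-like cells, at 110.5 and 96.9 CPM against 5.84 to 29.9 CPM in host classes. In the KPC-shZEB1-labelled library, however, it had 132 CPM in Epcam-high but 21.3 CPM in Epcam-low cells, where Pvt1 was highest. Wrap53, annotated 104 bases from Trp53, had 7.90 and 6.89 CPM. No other counted gene overlapped any member on either strand, with 0 overlaps on each. Next to Cdkn1a, the splicing factor gene Srsf3 had 271 and 285 CPM, and Rab44 reached 319 CPM in a host class against 13.1 and 9.16 CPM in tumor-like cells.

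Over 25 sums of cells by class and library, the genes most like each member were found among 9476 genes by Pearson's r of log2(CPM + 1). The sums share libraries, so r is a description. Cdkn2a was most like Prkg2 (0.96), Ankrd1 (0.94) and Tpd52l1 (0.94), and Cdkn2b most like Neo1 (0.96), Tnfrsf12a (0.95) and Ptgfrn (0.91). Trp53 was closest to Pnpt1 (0.96), Myef2 (0.95) and Ndufaf2 (0.94). The myeloid pattern of Cdkn1a was shared by Il1b (0.91), Mitf (0.90) and Jdp2 (0.90), and that of Mdm2 by Mitf (0.87), Rabgef1 (0.87) and Ehd1 (0.87).

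Ccng1 had no close match, the best being Slc7a8 (0.75), Ifi27l2a (0.74) and Saa3 (0.74). Smad4 was most like Zfp182 (0.92), Cep350 (0.90) and Tbc1d1 (0.89), Myc most like Med24 (0.91), Alg11 (0.90) and Trmt1 (0.89), and Pvt1 most like Las1l (0.91), Aqp5 (0.90) and Gss (0.90). Among the members the highest r was 0.85 between Cdkn2a and Pvt1, followed by 0.83 between Cdkn1a and Mdm2 and 0.82 between Myc and Pvt1. The lowest was -0.76 between Cdkn1a and Myc.

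A cluster led by Mmp7, of 7 and 26 cells, was left unnamed. It had 8 detected epithelial markers and high Epcam, at 1357 and 1199 CPM. Its Krt8 was at 131% and 153% of the tumor-like level and its Krt19 at 93.7% and 42.7%. It held little of 2 members that were high in tumor-like cells. Cdkn2a was 31.4 and 20.04 CPM and Pvt1 162 and 131 CPM, on 6, 11, 31 and 72 UMIs.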

How the data were processed

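Single-cell suspensions of 1 orthotopic tumor per group were sequenced with a 10x 3′ kit, and the deposited files hold UMI counts per gene and barcode, made by the authors with Cell Ranger 7.0.1 on mm10 as filtered matrices with replicates not pooled. Whether intronic reads were counted is not given in the sources used here. The 12594 and 13271 barcodes (130941086 and 143461224 UMIs) were filtered as in the study's methods (at least 500 genes, 1000 to 60000 UMIs, at most 15% mitochondrial), and 315 and 343 barcodes with a Scrublet doublet score above 0.2 were removed. Cells were clustered with scanpy 1.11.5 and leidenalg 0.10.2 (3000 variable genes, 30 components, 20 neighbors, resolution 1) without the 9 genes or the listed genes, giving 27 clusters named from marker genes. Of the barcodes, 46 occurred in both libraries.

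Counts were summed per class and library and given as CPM with exact Poisson intervals. Shares carry exact binomial (Clopper-Pearson) intervals in the underlying tables, and ratios an exact interval conditional on the summed count (scipy 1.17.1). UMIs of 1 tumor are not replicates, so no test was made. Genes with at least 30 UMIs were counted as higher or lower at 1.5-fold. The named genes were the 9 members, the 2 highest and 2 lowest ratios of each list, the 3 genes most like each member, up to 3 annotated genes on either side of it, and Zeb1. Some items that this rule covers are not reported here. Likeness used genes with a mean of at least 10 CPM and sums of at least 200000 UMIs. Background RNA was estimated from S100a8, S100a9, Csf3r, Cxcr2 and Retnlg.

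Members and lists were chosen with earlier results of these data known. The comparison with epithelial genes, that with all host classes, the form of the naming rule, the mismatch allowed in the p53 site and the other genes named (Perp, Pmaip1, Sesn1 and Smad3 between subpopulations, and those above every host class) were chosen after values were seen.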

Additional observations from a re-analysis of the deposited data

Results flagged for a closer look

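Barcodes above 60000 UMIs (289 in the KPC-shV-labelled library and 217 in that labelled KPC-shZEB1) were outside every comparison above, and 3 genes gave a higher level there in the KPC-shZEB1-labelled library. Cdkn2a was at 266 and 352 CPM, a ratio of 1.32 (1.28–1.37). Cdkn1a was at 133 and 180.1 CPM, a ratio of 1.36 (1.30–1.43). Mdm2 was at 82.0 and 94.3 CPM, a ratio of 1.15 (1.08–1.23). These barcodes were rich in epithelial transcripts, with Epcam at 485 and 580 CPM, and whether they hold more than 1 cell was not tested.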

How the results depend on the processing

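No paired analysis was possible because each group has 1 library, and no library could be left out for the same reason. Ratios that crossed 1 under an alternative were those of Trp53 and Mdm2 between the libraries and, for Epcam-low over Epcam-high cells, of Trp53, Smad4 and Myc in the KPC-shZEB1-labelled library and of Ccng1 in both libraries (1.01 and 1.02 with background RNA subtracted). Between the libraries 0 members passed 1.5-fold when genes needed at least 100 UMIs, as before, and 7 list genes in place of 8. Between the libraries, over 9 alternatives, ratios in tumor-like cells ran from 0.961 to 1.02 for Trp53, 1.18 to 1.44 for Cdkn2a, 0.746 to 0.895 for Cdkn2b, 1.09 to 1.34 for Cdkn1a, 0.942 to 1.08 for Mdm2, 1.06 to 1.24 for Ccng1, 0.886 to 0.987 for Smad4, 0.883 to 0.981 for Myc and 0.675 to 0.834 for Pvt1. Without the Ralyl-positive cluster the ratios were 0.961 for Trp53, 1.22 for Cdkn2a, 1.06 for Ccng1, 0.978 for Smad4 and 0.791 for Pvt1. With no upper UMI limit they were 1.39 for Cdkn2a, 1.26 for Cdkn1a and 0.767 for Pvt1. With tumor cells taken by marker UMIs alone (856 and 624 cells, of which 567 and 379 were tumor-like) they were 1.18 for Cdkn2a, 0.746 for Cdkn2b, 1.34 for Cdkn1a, 0.974 for Mdm2 and 0.834 for Pvt1. As a mean over cells they were 1.12 for Cdkn1a, 0.987 for Smad4 and 0.981 for Myc. With background RNA subtracted they were 1.09 for Cdkn1a, 0.942 for Mdm2, 0.886 for Smad4 and 0.686 for Pvt1. After that subtraction Cdkn1a was not higher in the KPC-shZEB1-labelled library within Epcam-high or Epcam-low cells. Pvt1 was 0.772 without doublet removal, 0.675 with stricter cell filters and 0.705 without the few-UMI cluster.

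For Epcam-low over Epcam-high cells in the KPC-shV-labelled library, leaving doublets in gave 1.18 for Trp53, 1.27 for Cdkn2a, 0.592 for Cdkn1a, 0.970 for Smad4, 1.32 for Myc and 2.15 for Pvt1. Resolution 2, chosen after seeing the data, gave 1.11 for Trp53, 0.599 for Cdkn1a, 1.45 for Myc and 2.20 for Pvt1, and background subtraction gave 0.350 for Cdkn1a and 1.29 for Pvt1. In the KPC-shZEB1-labelled library, leaving doublets in gave 1.18 for Trp53, 1.16 for Cdkn2a, 0.736 for Cdkn1a, 1.10 for Mdm2, 1.02 for Smad4, 1.34 for Myc and 2.14 for Pvt1. There, resolution 2 gave 1.51 for Cdkn2a and 2.30 for Pvt1, and background subtraction gave 0.165 for Cdkn1a, 1.45 for Mdm2 and 1.75 for Pvt1. Leaving doublets in also changed the border, with 330 and 396 Epcam-high and 878 and 527 Epcam-low cells. Otherwise the cause was not tested. Ralyl-positive values of the KPC-shV-labelled library rest on 9 cells (20 with no upper UMI limit), and a single tumor per group limits every ratio.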
